A study of Homo sapiens with 16 samples.

Results

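The genes described here encode proteins that copy and repair DNA. They were taken by symbol: the MCM, ORC, RFC, RAD, ERCC, XRCC, FANC and MSH families and the subunits of DNA polymerases alpha, delta and epsilon (POLA, POLD, POLE). The rule gave 83 coding genes of 20400 in GENCODE 29. Of these, 65 could be named in the deposited transcript entries, against 10675 named symbols in all, 56 passed the expression filter in the comparison with the drug (6556 genes in all), and 62 passed it in the comparison of untreated lines (7808 genes).

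Ribosome profiling was done in 4 established human cell lines, all labelled wild type: NCI-H1650 and NCI-H520, from lung cancer, and Hs 936.T and A375, from melanoma. Each line received the solvent DMSO (2 libraries), rocaglamide A (RocA) at 0.3 µM (1 library) or RocA at 3 µM (1 library), for 30 min, which makes 16 libraries. A footprint is the piece of mRNA that a ribosome shields from RNase, so its count follows the number of ribosomes on a coding sequence. Footprints were not divided by mRNA levels, so less mRNA and fewer ribosomes per mRNA cannot be told apart. Each dose rests on 1 library per line, and the lines served as replicates (n = 4). For the drug comparisons, 1 spread estimate was taken over all 16 libraries, with the libraries of a line treated as independent. Their p-values therefore mix spread between libraries of a line with spread between lines. Nothing in the labels says that the 2 DMSO libraries of a line came from separate cultures, so p-values may in part measure technical spread.

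Footprint totals over named genes ran from 617468 to 3379686 with DMSO and from 53246 to 623010 with RocA. The lowest was NCI-H1650 at 3 µM, where 1 count equals 16.5 CPM. For CPM, counts were scaled to the library's total over the 6556 genes tested with the drug, times its TMM normalization factor. The members together took 0.557 to 0.990% of the counts of a library. Of the epithelial genes named by length (6), the summed level was 5059 to 23254 CPM in the lung lines and 10.5 to 82.1 CPM in the melanoma lines. The 6 named melanocyte genes summed to 28802 to 50297 CPM in Hs 936.T and to 34.8 to 171 CPM in A375. They summed to 125 to 198 CPM in NCI-H1650, with 1 to 3 of the genes at 0, and in NCI-H520 to 932 and 2313 CPM with DMSO against 271 and 626 CPM with RocA. The part of these transcripts in the results for NCI-H520 was not tested. DMSO replicate 2 and the 3 µM library of NCI-H520 carry that line in their titles and NCI-H521 as their cell line, and were grouped by title.

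Replication starts at origins bound by the origin recognition complex (ORC), which with other factors loads the MCM helicase that unwinds DNA. The RFC complex opens the sliding clamp and places it on DNA for the polymerases. Polymerase alpha with primase lays down primers, polymerase delta mainly extends the lagging strand and polymerase epsilon the leading strand. MSH proteins detect mismatches, ERCC proteins act in nucleotide excision repair, several RAD proteins in homologous recombination, and FANC proteins in the repair of crosslinks between strands. RocA clamps the RNA helicase eIF4A onto stretches of A and G (purines) in mRNA, which blocks scanning ribosomes in the 5′ UTR.

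The longest uninterrupted purine run in an annotated 5′ UTR is shown for members among those whose footprints fell or rose most with RocA. Such runs are the RNA on which the drug is known to clamp eIF4A. The 5′ UTR is that of a GENCODE transcript with the matched coding length. Where several transcripts of a gene had that length, the choice among them followed annotation tags. Which 5′ UTR these cells use was not measured. ORC2, also among the largest falls, and ERCC1, which was not called, are examples of members that go against a simple order of run lengths. The printed members are a selection and not simply the largest changes. XRCC1 and MCMBP, each with a run of 9 nt, changed more than RAD51C, which is printed. Others are not printed. Among them are RFC4 and RAD18, called lower with runs of 6 nt, XRCC1, called higher with 9 nt, and RAD51D, called higher at 0.3 µM with 10 nt. Capitals mark the run, and up to 4 bases on either side are in lower case.
MCM8: ctacGGGAGGGAGGGAGGGAGAAtccg
POLA2: ccgcGGAGGGGGGAAGGAtaag
RFC2: tggcGGGAAGAGGAGGcgcg
FANCG: ccgcGGGGAGAGAGcgtc
MCM3AP: agacGAAGGGGAActcc
ORC2: ccttAAAAGGttgg
ERCC2: tcatGAGGGAGGcggg
POLD1: tggcGGGAAAcgct
RAD51C: cagcGAGGGcgtg
POLD4: gtctGGGtcat
ERCC1: gaccGGGAAGAGAGGAAGcgcg
In GRCh38 the run of MCM8 lies in exon 1 at chr20:5950924-5950942 (plus strand). The run of POLA2 lies in exon 1 at chr11:65262180-65262193 (plus strand), that of RFC2 in exon 1 at chr7:74254391-74254402 (minus strand) and that of FANCG in exon 1 at chr9:35079700-35079709 (minus strand). The run of MCM3AP lies in exon 1 at chr21:46285372-46285380 (minus strand), and that of ORC2 is joined from exons 2 to 3 between 200958133 and 200959396 on chromosome 2 (minus strand). Among the genes that rose, the run of ERCC2 lies at chr19:45370575-45370582 (minus strand), that of POLD1 at chr19:50384370-50384375 (plus strand), that of RAD51C at chr17:58692596-58692600 (plus strand) and that of POLD4 at chr11:67353528-67353530 (minus strand), each in exon 1. The run of ERCC1, whose footprints were not called changed at either dose, lies in exon 1 at chr19:45424250-45424263 (minus strand).

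With RocA the members divided into genes that gained and genes that lost footprint share, relative to all other genes in the library. By edgeR's quasi-likelihood test with a term for cell line, a Benjamini-Hochberg adjusted p under 0.05 over all 6556 genes was a call. At 0.3 µM 16 of 56 members were called higher (28.6%, where the share over all genes was 26.4%) and 16 lower (28.6%, where it was 32.7%). At 3 µM 17 were called higher (30.4%, against 24.8%) and 17 lower (30.4%, against 31.1%). These shares lie near those of all genes. The median log2 fold change of the members was 0.00 at both doses, beside -0.11 at 0.3 µM and -0.14 at 3 µM over all genes tested. Of the called members, 28 of 32 at 0.3 µM and 28 of 34 at 3 µM moved the same way in each of the 4 lines, near the shares over all called genes (84.2% and 81.1%). Both comparisons share the DMSO libraries. The names rest on coding lengths, and 13 of the called members, POLA2, ORC2, MCMBP, MCM3AP, FANCG, RFC1, RFC4, RAD1, RAD21, FANCA, FANCM, POLD4 and RAD51D, are not named under the first of 6 naming settings tried. With that setting 37 members were tested, of which 11 were called higher and 13 lower at 0.3 µM, and 12 higher and 9 lower at 3 µM. The shares over all genes with that setting are not given here, so these counts cannot be set against them. Of the 13, POLA2, MCMBP, MCM3AP, RAD1 and POLD4 are named under the last setting alone, which is used here. By GENCODE 29 each of the 65 members lay within 5 Mb of both named genes beside it in the files, a position that the matching did not use.

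**Figure D1:**
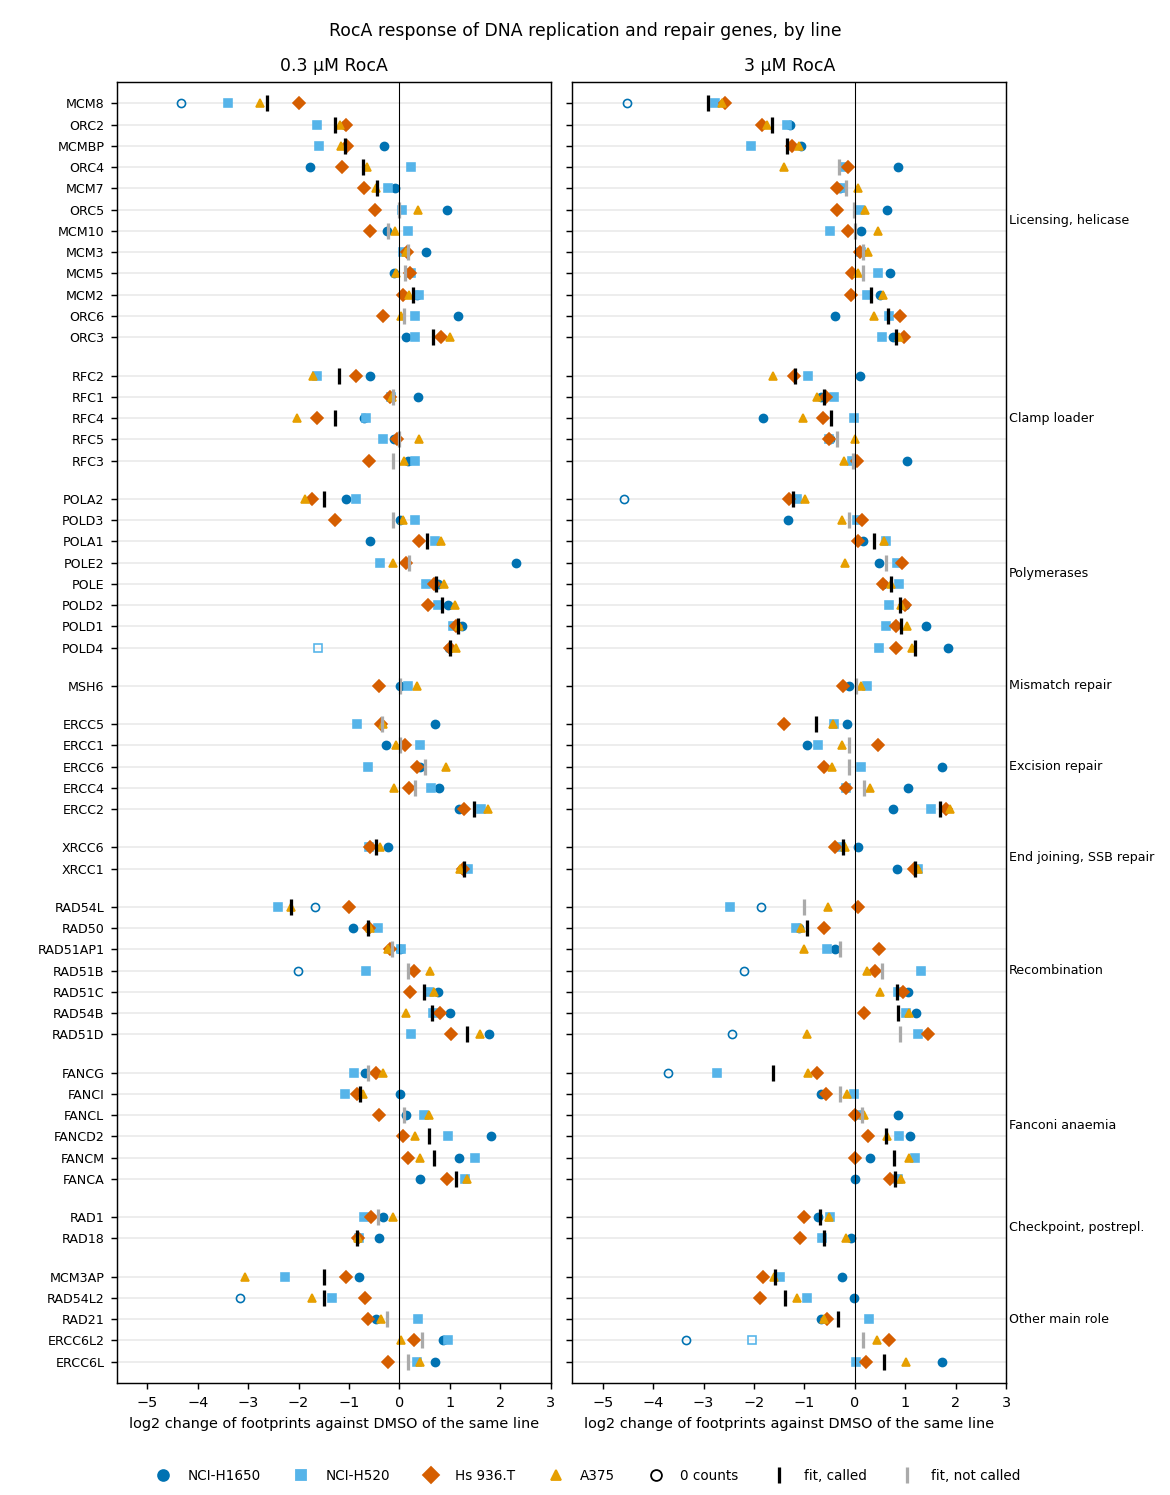
Log2 change of footprints (log2 CPM with a prior count of 2, treated library minus the mean of the 2 DMSO libraries of the line) for the tested members reported here at 0.3 µM (left) and 3 µM (right), 1 symbol per line and ordered by role; open symbols are libraries with 0 counts, and ticks are the fitted change over lines, black where called. ERCC2, XRCC1 and POLD1 lie right of 0 in each line at both doses, and MCM8 and ORC2 left of it; positions of open symbols depend on the prior count.

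Among the replicative polymerases, 5 of 8 tested subunits were called higher and 1 lower at each dose. Over all genes tested, 26.4% were called higher and 32.7% lower at 0.3 µM, and 24.8% and 31.1% at 3 µM. The counts per role given here and below rest on few genes. Whether any role differs from these shares was not tested. POLD1, the catalytic subunit of polymerase delta, stood at 67.8 to 107 CPM with DMSO (median 85.1, 8 libraries). At 0.3 µM it stood at 176 CPM in NCI-H1650, 169 in NCI-H520, 200 in Hs 936.T, then 227 in A375, and at 3 µM at 198, 123, 161 and 206 CPM in the same order. Each treated library lay above both DMSO libraries of its line. The log2 fold change was 1.16 (SE 0.13, adjusted p = 4.16e-10) at 0.3 µM and 0.92 (SE 0.16, adjusted p = 3.14e-06) at 3 µM. POLD2, an accessory subunit of the same enzyme, rose by 0.84 (SE 0.13) and 0.89 (SE 0.14) on the log2 scale, from 94.7 to 207 CPM with DMSO (median 129) to 155 to 327 CPM at 0.3 µM and 182 to 330 CPM at 3 µM, above both DMSO libraries in every line.

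POLD4, the smallest subunit of polymerase delta, rose by 1.01 (SE 0.28) at 0.3 µM and 1.20 (SE 0.32) at 3 µM on the log2 scale. Its treated libraries stood above both DMSO libraries in 3 lines at each dose. In NCI-H520, where DMSO gave 10.6 and 2.56 CPM, it had 0 counts at 0.3 µM and 8.23 CPM at 3 µM. Without A375 the log2 fold change at 0.3 µM was 0.85 and no longer called. POLD3, which links the polymerase to the clamp, was not called, with log2 fold changes of -0.13 (SE 0.21) and -0.12 (SE 0.24); its difference from the other subunits was not tested.

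POLE, the catalytic subunit of polymerase epsilon, rose by 0.72 (SE 0.17) and 0.71 (SE 0.19), from 42.8 to 71.5 CPM with DMSO (median 54.3) to 75.4 to 98.0 CPM at 0.3 µM and 66.0 to 123 CPM at 3 µM, without overlap within any line. Without NCI-H520 the call at 3 µM ended (0.49). Its partner POLE2 had log2 fold changes of 0.19 (SE 0.26) and 0.62 (SE 0.27) and was not called. The fitted changes of the 2 tested subunits of polymerase alpha had opposite signs. POLA1, the catalytic subunit, was called higher at 0.3 µM (0.56, SE 0.15) and barely at 3 µM (0.38, SE 0.17, adjusted p = 0.0496), a call that ended in 16 of 19 alternatives. It lay above both DMSO libraries in 3 lines at each dose, but in NCI-H1650, where DMSO gave 36.8 and 23.6 CPM, it stood at 18.8 CPM at 0.3 µM and 33.0 CPM at 3 µM. POLA2, the regulatory subunit, fell, with log2 fold changes of -1.50 (SE 0.22, adjusted p = 1.43e-07) and -1.22 (SE 0.23, adjusted p = 2.00e-05). With DMSO POLA2 stood at 35.3 to 137 CPM (median 88.5). At 0.3 µM it stood at 18.8 CPM in NCI-H1650, 71.0 in NCI-H520, 19.6 in Hs 936.T, then 27.6 in A375, and at 3 µM at 0, 57.6, 27.4 and 52.4 CPM, below both DMSO libraries in each line.

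**Figure D2:**
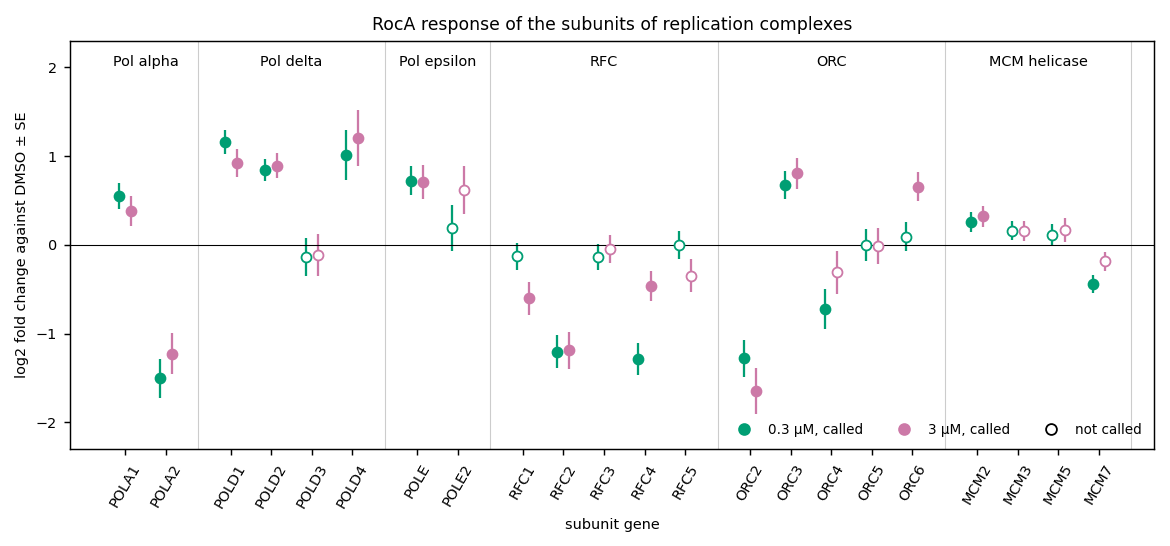
Fitted log2 fold change against DMSO (points, with SE as bars) of the subunits of replication complexes at 0.3 µM (green) and 3 µM (pink); filled points are called. The fitted values of POLA1 and POLA2 lie on opposite sides of 0, as do ORC2 and ORC3.

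In the clamp loader, 0 of 5 subunits were called higher, 2 were called lower at 0.3 µM and 3 at 3 µM. RFC2 fell, with log2 fold changes of -1.20 (SE 0.18) and -1.19 (SE 0.21), from 74.9 to 179 CPM with DMSO (median 146) to 44.4 to 87.4 CPM at 0.3 µM, below both DMSO libraries in each line, and to 48.9 to 82.5 CPM at 3 µM, below them in 3 lines. RFC4 fell by 1.29 (SE 0.18, adjusted p = 3.16e-08) at 0.3 µM. At that dose it stood at 37.7 CPM in NCI-H1650, 213 in NCI-H520, 76.7 in Hs 936.T, then 21.4 in A375, and at 3 µM at 16.5, 337, 154 and 45.4 CPM. RFC4 was the 1 member called different between the doses, higher at 3 than at 0.3 µM by 0.82 (SE 0.23, adjusted p = 0.0382, where 1.24% of all genes were called higher and 2.1% lower). This call ended in 11 of 18 alternatives, among them leaving out the 2 libraries labelled NCI-H521 (0.48). By edgeR 0 members were called lower at 3 than at 0.3 µM, 1 had an unadjusted p under 0.05 in that direction, and DESeq2 called 0 in either direction. RFC1, the large subunit, was called lower at 3 µM (-0.60, SE 0.19), a call that ended without A375 and after thinning (-0.50 in both), but neither RFC3 (-0.14 and -0.04) nor RFC5 (0.00 and -0.35) was called.

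Of 12 tested genes of origin licensing and the helicase, 2 were called higher and 5 lower at 0.3 µM, and 3 higher and 3 lower at 3 µM. MCM8, a helicase that acts with MCM9 in recombination, stood at 38.2 to 94.2 CPM with DMSO (median 73.9). At 0.3 µM it had 0 counts in NCI-H1650 and 4.44 CPM in NCI-H520, 21.4 in Hs 936.T, then 9.19 in A375, and at 3 µM again 0 counts in NCI-H1650, then 8.23, 13.7 and 10.5 CPM. Its treated libraries lay below both DMSO libraries in each line. The treated libraries held 16 counts at 0.3 µM, 6.16-fold fewer than the DMSO level gives (95% counting interval 3.80 to 10.8), and 9 counts at 3 µM, 7.58-fold fewer (4.0 to 16.6). These intervals cover counting error only.

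ORC2, a core subunit of the origin complex, fell, with log2 fold changes of -1.28 (SE 0.21) and -1.65 (SE 0.26), from 41.3 to 134 CPM with DMSO (median 73.1) to 18.8 to 42.8 CPM at 0.3 µM and 14 to 49.4 CPM at 3 µM, below both DMSO libraries in each line. ORC3, which binds ORC2 in the complex, rose by 0.67 (SE 0.16) and 0.81 (SE 0.17). ORC4 was called lower at 0.3 µM (-0.72, SE 0.23), a call that ended without Hs 936.T (-0.41) and after thinning libraries to equal depth (-0.55). In NCI-H520 it stood at 137 CPM at that dose, above both DMSO libraries (111 and 124 CPM). ORC6 was called higher at 3 µM (0.66, SE 0.16) and lay above both DMSO libraries in 3 lines. In NCI-H1650 ORC6 stood at 33.0 CPM (2 counts) at that dose, below both DMSO libraries (36.8 and 53.1 CPM). ORC5 was called at neither dose. MCMBP, which binds MCM proteins, fell, with log2 fold changes of -1.08 (SE 0.15) and -1.34 (SE 0.18), from 139 to 274 CPM with DMSO (median 212) to 57.7 to 121 CPM at 0.3 µM and 41.2 to 115 CPM at 3 µM. Of the helicase subunits, MCM2, MCM3, MCM5 and MCM7 moved little, and MCM4 and MCM6 were not named by length. MCM7 was called lower at 0.3 µM (-0.44, SE 0.11), MCM2 was called higher by 0.26 (SE 0.11) and 0.32 (SE 0.12), calls that ended in 15 and 6 of 19 alternatives, and MCM3 and MCM5 were not called, with log2 fold changes between 0.11 and 0.17.

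In nucleotide excision repair, 2 of 6 genes were called higher at each dose, 0 lower at 0.3 µM and 1 lower at 3 µM. ERCC2, a helicase of the transcription and repair factor TFIIH, had the largest called rise among members with at least 20 CPM on average. It stood at 35.0 to 84.1 CPM with DMSO (median 40.9). At 0.3 µM it stood at 176 CPM in NCI-H1650, 124 in NCI-H520, 102 in Hs 936.T, then 138 in A375, and at 3 µM at 132, 115, 147 and 150 CPM, so that no treated library overlapped any DMSO library. The log2 fold changes were 1.49 (SE 0.16, adjusted p = 8.53e-11) and 1.68 (SE 0.18, adjusted p = 8.03e-11). ERCC1, ERCC4 and ERCC6 were not called. XRCC1, a scaffold of single-strand break repair, rose by 1.27 (SE 0.13) and 1.19 (SE 0.15), from 54.8 to 91.9 CPM (median 74.5) to 164 to 220 CPM and 152 to 178 CPM, again with no overlap of any treated and DMSO library. XRCC6, the smaller Ku subunit of end joining, was called lower by a small amount (-0.46, SE 0.09, and -0.23, SE 0.10), at 3 µM a call that ended in 6 of 19 alternatives.

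In homologous recombination, 3 of 8 genes were called higher and 3 lower at 0.3 µM, and 2 higher and 2 lower at 3 µM. RAD50, of the complex that senses broken ends, fell, with log2 fold changes of -0.62 (SE 0.17) and -0.96 (SE 0.21), the first not called after thinning (-0.53). RAD51C, which acts in complexes of recombination, rose by 0.48 (SE 0.15) and 0.83 (SE 0.15), and RAD54B, a DNA translocase related to RAD54, by 0.65 (SE 0.20) and 0.85 (SE 0.22). At 0.3 µM the call of RAD51C ended without NCI-H520 and without the filter on low counts (0.36 in both), and that of RAD54B without Hs 936.T (0.53); at 3 µM that of RAD54B ended without NCI-H520 (0.62). RAD51C stood at 50.9 to 146 CPM with DMSO (median 96.2), at 94.2 to 213 CPM at 0.3 µM and at 105 to 259 CPM at 3 µM, above both DMSO libraries in each line.

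Of 6 tested Fanconi anaemia genes, 3 were called higher and 1 lower at each dose. FANCA, of the core complex, rose by 1.13 (SE 0.16) and 0.79 (SE 0.19), from 31.0 to 88.5 CPM (median 40.5) to 44.0 CPM in NCI-H1650, 208 in NCI-H520, 89.2 in Hs 936.T, then 95 in A375 at 0.3 µM. At 3 µM its value in NCI-H1650 (33.0 CPM) lay between the DMSO libraries of that line. FANCG, of the same core complex, was called lower at 3 µM (-1.61, SE 0.40), with 12 counts over the 4 treated libraries, 3.17-fold fewer than the DMSO level gives (95% counting interval 1.81 to 6.14). FANCI and FANCD2, which bind each other, were called in opposite directions at 0.3 µM (-0.77, SE 0.15, and 0.58, SE 0.16). Without NCI-H520 the call of FANCD2 ended at both doses (0.33 at each), and at 3 µM also without the 2 libraries labelled NCI-H521 (0.47). In the checkpoint and postreplication group, RAD18, a ubiquitin ligase, was called lower at both doses (-0.84, SE 0.21, and -0.62, SE 0.22), at 3 µM not without Hs 936.T (-0.38). MSH6, of mismatch repair, was called at neither dose, with log2 fold changes of 0.00 (SE 0.12) and 0.02 (SE 0.13). MCM3AP, which shares the name but acts mainly in mRNA export, fell, with log2 fold changes of -1.50 (SE 0.24) and -1.58 (SE 0.29), below both DMSO libraries in each line at both doses.

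Of the 65 named members, 9 had too few counts for the drug comparison: RAD21L1, RAD17, RAD9A, RAD9B, RAD52, XRCC3, MSH5, MCM9 and MCMDC2. MCM9, the partner of MCM8, had 1 count at 0.3 µM, 19.2-fold fewer than its DMSO level gives with a counting interval of 3.44 to 757, and 4 counts at 3 µM. Not named by length, and so not analysed here, were ERCC3, ERCC8, FANCB, FANCC, FANCE, FANCF, MCM4, MCM6, MSH3, MSH4, ORC1, POLE3, POLE4, RAD23B, RAD51AP2, XRCC2, XRCC4 and XRCC5.

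The purine runs printed above can be set beside these calls as a description, with no test. A run of 10 or more purines was present in 52.9% of the 17 members called lower at 3 µM. Among the 16 called higher with an annotated 5′ UTR the share was 0%, and over the 6408 tested genes with one it was 30.8%. The cut of 10 nt was chosen after the files were seen, and the longest run among those called higher was 9 nt. Shares over all genes called lower or higher are not given. Whether the difference is particular to the members was therefore not tested. The median longest run was 10 nt in the members called lower, 5.5 nt in those called higher and 8 nt over all tested genes. At 0.3 µM the medians were 9 nt (16 members lower) and 6 nt (15 members higher), and 43.8% and 6.67% had such a run. The length of the 5′ UTR differed in the same direction, with medians of 268 nt for members called lower and 66 nt for those called higher at 3 µM, beside 173 nt over all tested genes; longer sequences hold longer runs, and the part of length was not tested. MCM8 had the longest run among the members (19 nt) and POLA2 a run of 14 nt, as did ERCC1, which was not called (log2 fold change 0.00 and -0.12). ORC2 and RFC4 were called lower with runs of 6 nt. XRCC1 rose with a run of 9 nt in a 5′ UTR of 548 nt.

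**Figure D3:**
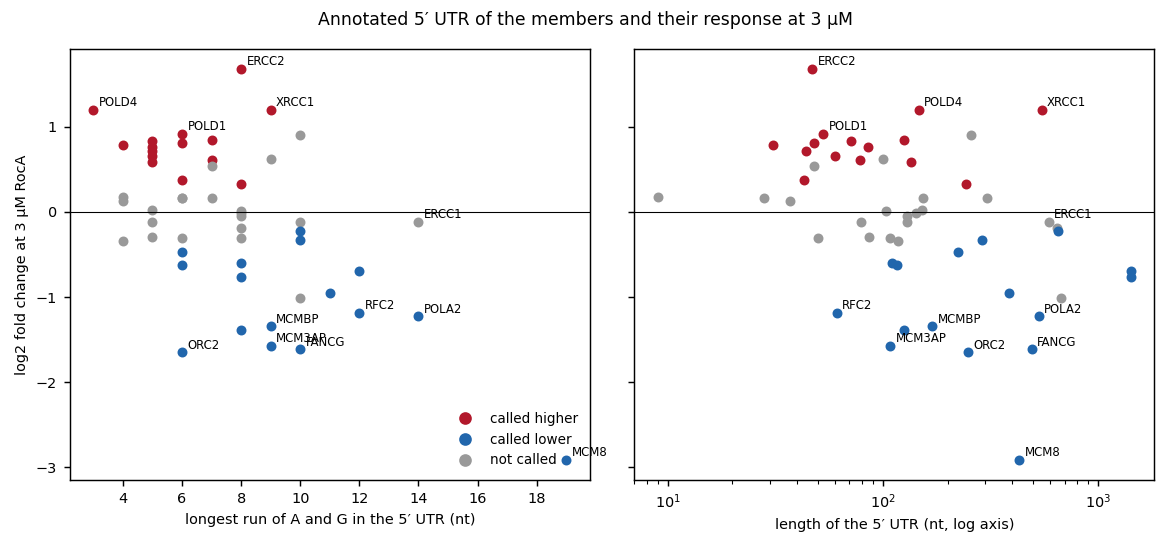
Fitted log2 fold change at 3 µM of the tested members reported here that have an annotated 5′ UTR against its longest purine run (left, nt) and the length of the 5′ UTR (right, nt, log axis), coloured by call. Members called higher have runs of at most 9 nt; the members called lower spread from 6 to 19 nt, and the 5′ UTR length separates them in part as well.

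The response differed between lines for 2 of 56 members (3.57%, against 3.13% of all genes), by an F-test of edgeR on a response per line shared by both doses. RAD21, the cleavable subunit of the cohesin ring, had the smaller adjusted p (0.000282). Its log2 change was 0.36 at 0.3 µM and 0.27 at 3 µM in NCI-H520, and in the other lines between -0.63 and -0.36 at 0.3 µM and between -0.67 and -0.56 at 3 µM. FANCD2 (adjusted p = 0.0144) changed by 1.82 and 1.10 in NCI-H1650 and by 0.97 and 0.88 in NCI-H520, beside 0.08 and 0.26 in Hs 936.T and 0.31 and 0.63 in A375. Without NCI-H520 or without Hs 936.T, 1 member was called, as also after thinning libraries to equal depth.

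Before treatment the lines differed in the footprint share of most members, as they did for most genes tested. Under DMSO 54 of 62 members differed between the 4 lines (87.1%, against 91.2% of all 7808 genes). NCI-H1650 had the lowest mean level for 40 of 62 members (64.5%, against 29.4% of all genes) and the highest for 5. Pairs of lines were added after the values had been seen, 6 in all, and the 3 with NCI-H1650 are given. It was called lower than NCI-H520 for 42 members (67.7%, against 28.7% of all genes) and higher for 5 (8.06%, against 29.8%). Against Hs 936.T it was lower for 39 (62.9%, against 33.8%) and higher for 7 (11.3%, against 35%), and against A375 lower for 34 (54.8%, against 31.5%) and higher for 5 (8.06%, against 31.8%). The median log2 difference of the members was -0.88, -0.77 and -0.64 in these pairs, beside 0.02, 0.02 and -0.02 over all genes.

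MCM7 stood at 202 ± 12.3 CPM in NCI-H1650 (SD, n = 2, as for the values that follow), 731 ± 12.2 in NCI-H520, 783 ± 9.31 in Hs 936.T, then 755 ± 1.02 in A375, so that NCI-H1650 lay apart from lines that were close to each other. MCM3 ran from 110 ± 26.3 CPM in NCI-H1650 through 234 ± 16.5 in A375 and 373 ± 4.94 in Hs 936.T to 622 ± 30.7 in NCI-H520. MCM2 had another order, with the lowest level in Hs 936.T (101 ± 0.783 CPM), then NCI-H1650 (163 ± 15.5), A375 (369 ± 8.14) and NCI-H520 (757 ± 24.3), although both genes encode subunits of the same helicase. RFC4 stood at 62.7 ± 7.31 CPM in NCI-H1650, 95.1 ± 0.142 in A375, 242 ± 9.67 in Hs 936.T and 341 ± 3.73 in NCI-H520. RFC3, of the same clamp loader, stood at 39.9 ± 10.4, 228 ± 3.67, 217 ± 11.6 and 126 ± 5.52 CPM in these lines, with A375 and Hs 936.T close to each other. FANCI stood at 109 ± 28.4 CPM in NCI-H1650, 164 ± 2.35 in A375, 229 ± 5.82 in NCI-H520 and 373 ± 1.91 in Hs 936.T. These 6 had the smallest adjusted p among the members, from 1.22e-28 for MCM2 to 3.28e-18 for RFC3. Per 1000 codons, XRCC6 had the highest density of footprints among the members in each line (1438 to 2313 CPM per 1000 codons). RAD21 (657 to 1542) stood above MCM7 (284 to 1103) in the lung lines and below it in the melanoma lines.

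**Figure D4:**
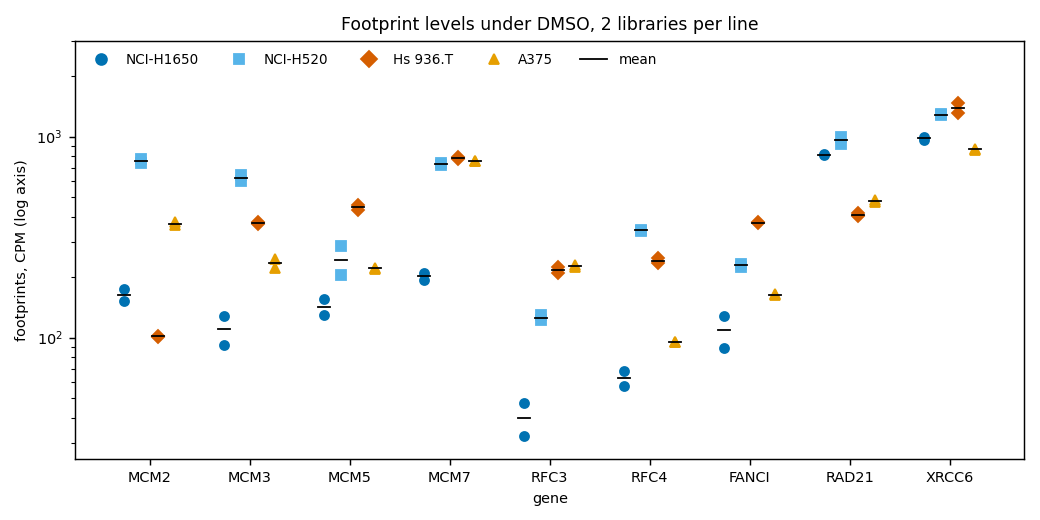
Footprint level under DMSO (CPM, log axis) of 9 members in the 2 libraries of each line, with the mean as a bar. NCI-H1650 is lowest for MCM3, MCM5, MCM7, RFC3, RFC4 and FANCI; for MCM2 Hs 936.T is lower, and RAD21 is higher in both lung lines than in the melanoma lines.

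Between the mean of the lung and the mean of the melanoma lines, 7 of 62 members were called higher in the lung lines (11.3%, against 28.7% of all genes) and 27 lower (43.5%, against 31.4%). With 2 lines of each kind, these p-values measure the spread between libraries of a line and not between lines. The lung mean also averages unlike lines. Among all lines, NCI-H1650 had the lowest mean level for 40 of 62 members and the highest for 5. NCI-H520 had the highest for 26 (41.9%, against 24.4% of all genes) and the lowest for 10. The larger share of members called lower therefore does not describe both lung lines. The log2 fold change of the lung mean against the melanoma mean was 0.95 for RAD21, 0.81 for MCM2 and -1.70 for RFC3. For RAD21 and RFC3 the DMSO libraries of the lung and melanoma lines did not overlap. MCM2 did not separate the 2 kinds of line. It stood at 174 and 152 CPM in NCI-H1650, below A375 (374 and 363 CPM), and was high in NCI-H520 alone among the lung lines (774 and 740 CPM).

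A fixed list of other replication and repair genes outside the rule had 80 genes tested with RocA. At 0.3 µM 18 were called higher (22.5%, against 26.4% of all genes) and 33 lower (41.2%, against 32.7%). At 3 µM 14 were called higher (17.5%, against 24.8%) and 28 lower (35%, against 31.1%). The median log2 fold changes were -0.30 and -0.31, beside -0.11 and -0.14 over all genes tested. PRKDC, the kinase of end joining, rose by 1.94 (SE 0.11) and 1.19 (SE 0.12), and RRM2, a subunit of the enzyme that makes deoxynucleotides, by 1.48 (SE 0.08) and 1.43 (SE 0.09). OGG1, which removes oxidised guanine, rose by 1.06 and 1.48, and PALB2, the partner of BRCA2, by 0.87 at 0.3 µM. EXO1, an exonuclease of mismatch repair and end resection, changed by -2.81 (SE 0.33) and -3.12 (SE 0.40). TDG, a glycosylase of base excision, changed by -2.20 and -2.40, and RBBP8, of end resection, by -2.95 and -2.57. MRE11, the nuclease that binds RAD50, changed by -1.90 (SE 0.25) at 0.3 µM, and TOP2B, a topoisomerase, by -2.55 (SE 0.50) at 3 µM, each of them a called fall. These falls rest on few treated counts. Per treated library, RBBP8 had 0 to 2 counts, EXO1 0 to 15 and TDG 0 to 11. MRE11 had 2 to 11 at 0.3 µM. TOP2B at 3 µM had 30 counts in Hs 936.T and 1 to 3 in the other lines.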

How the data were processed

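The deposited files hold, for 182398 transcript entries, the authors' raw footprint counts and, in another column, the codons counted. Per the submitters' processing notes, CASAVA 1.8, Bowtie2 2.1.0, TopHat2 2.0.9 and build hg38 were used; the sources used here do not give the annotation release. The codons are those of the coding sequence less 10, as matched to GENCODE 29, and 88482 noncoding entries hold 0 counts.

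Genes were named by matching sets of coding lengths of neighbouring entries to GENCODE 29, and the entry with the highest count sum stood for its gene. The naming settings were chosen after the data had been seen. In all, 6 settings were tried in turn, with the number of members named and their counts in view. The first named 7373 genes and 43 members, at a decoy rate (genes with lengths drawn at random that also passed) of 0.124%. The last, used here, asks for a score of at least 12 on the natural log scale and odds of at least 100, names 10676 genes and 65 members, and has a decoy rate of 1.75%. Of the members called lower at 3 µM, 9 of 17 are not named under the first setting (MCM3AP, RAD21, RAD1, RFC1, RFC4, FANCG, MCMBP, ORC2, POLA2), nor are FANCA, FANCM, POLD4 and RAD51D among those called higher; MCM3AP, RAD1, MCMBP, POLA2 and POLD4 are named under the last alone. Chromosome order, not used in the matching, placed 4 of 10620 named genes off their neighbours' chromosome, against 88.6% after shuffling, and all 65 members within 5 Mb of both neighbours.

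Counts were tested with edgeR 4.0.16 in R 4.3.3 (TMM, filterByExpr with a minimum count of 10, robust quasi-likelihood, 2-sided, Benjamini-Hochberg), with DESeq2 1.42.0 as an alternative; the fits were tested on simulated data. Drug comparisons used all 16 libraries with line and dose as terms, and the lines were compared over 8 DMSO libraries. SE comes from the F statistic. The chi-square per degree of freedom between DMSO replicates was 1.52 to 2.58, where counting error by itself gives about 1. Replicate numbers did not pair the lines (correlations of deviations -0.02 to 0.08). The genome build for sequences is GRCh38 with GENCODE 29, and the cut of 10 nt for purine runs was chosen after the files were seen.

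The members and lists were chosen with earlier results of these data known. Values in every library or as ranges are given for called members with at least 20 CPM on average, up to the 8 largest changes per direction and dose, and for the 6 members with the smallest adjusted p among lines; of the other list, the 4 largest per direction and dose are named. Some genes that this rule names are not reported here; counts and medians over the members and the list include them.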

Additional observations from a re-analysis of the deposited data

Results flagged for a closer look

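For each of 112 groups (56 members at each dose, 4 lines), the line farthest from the others was checked by Dixon's test at its 95% critical value, which chance passes in about 1 in 20 groups; 8 passed. At 3 µM, MCM8 (log2 change -4.5257) and POLA2 (-4.5866) in NCI-H1650 stood below the other lines, both at 0 counts in the shallowest library, so that these values depend on the prior count. POLD4 in NCI-H520 at 0.3 µM (-1.6166) also had 0 counts, while the other lines changed by 0.98 to 1.12. MCMBP in NCI-H520 at 3 µM changed by -2.0579 (10 counts), and the other lines by -1.24 to -1.07. In NCI-H1650 at 0.3 µM, RAD18 (-0.3963, 2 counts) and RFC1 (0.3687, 11 counts) stood above the other lines. RFC5 in A375 at 3 µM (-0.0072) stood above the others, which lay between -0.52 and -0.50. RAD21 in NCI-H520 at 3 µM (0.2713, 281 counts) stood above the others, which lay between -0.67 and -0.56.

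The response to RocA differed between lines, by the F-test of edgeR, for RAD21 (adjusted p = 0.000282) and FANCD2 (adjusted p = 0.0144).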

How the results depend on the processing

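No called change of a member turned its direction under any alternative that tested it. Of the members called, 24 of 32 at 0.3 µM, 19 of 34 at 3 µM and 25 of 34 between lung and melanoma lines were called in every alternative that tested them. The call of RFC4 between doses did not hold: the count of members higher at 3 than at 0.3 µM was 0 with the longest matched coding sequence, without the 2 libraries labelled NCI-H521, with the DESeq2 test, after thinning and with the first naming setting tried, and 0 to 2 when DMSO libraries or lines were left out in turn. At 3 µM, 11 members were called lower after thinning, where 1494 of 5121 genes in all were called lower. With the first naming setting, which tested 37 members and was added after seeing the data, 9 were called lower. When DMSO libraries or lines were left out in turn, 11 (without NCI-H520) to 17 members were called higher at 3 µM, 11 (without A375) to 18 lower, 1 (without NCI-H520 or Hs 936.T) to 3 differed in response, and 4 (without NCI-H1650 DMSO replicate 1) to 7 were higher in the lung lines. After thinning, 1 member differed in response. With the first naming setting NCI-H1650 was lower than NCI-H520 for 27 members and than Hs 936.T for 25, and higher than Hs 936.T for 4 and than A375 for 3. It was higher than A375 for 3 to 6 members when DMSO libraries were left out in turn. Shares over all genes are not given for the first naming setting or for the fits with libraries or lines left out. Whether the members differ from all genes in those fits cannot be read from these counts. The replicate block, over DMSO libraries alone, gave 54 members differing between lines, 7 higher and 27 lower in the lung lines, as without it. Treated libraries carry no replicate numbers, so treated and DMSO libraries could not be paired by number; these fits pair them by line, through the term for line. Thinning, with 5121 genes tested, moved the median of all genes at 3 µM from -0.14 to -0.03. Where a line and dose have few counts, as in NCI-H1650 at 3 µM, changes of low genes were not detectable at this depth.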
